A study of Homo sapiens with 6 samples.

Results

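The type I and type III interferons expressed from IFNB1, IFNL1, IFNL2 and IFNL3, and the receptor chains IFNLR1, IL10RB, IFNAR1 and IFNAR2 that bind them, were followed in transfected A549 cells, an established line from a human lung adenocarcinoma. The 3 control arrays held RNA of cells given the plasmid pcDNA-MYC, and the 3 arrays labelled NME2 induced held RNA of cells given pcDNA-NME2-MYC, a plasmid for NME2 with a MYC tag; the RNA was taken 48 h after transfection in each case. Both groups had therefore received plasmid DNA, and cells without any transfection were not part of the comparison. The share of cells that took up a plasmid is not given in the sources used here. All probes annotated to 1 of the 8 genes were taken, 13 of the 47231 probes on the Illumina Human HT-12 v4 array, and the 8 genes were among 11358 tested. The genes were chosen by results of this same contrast, in which the interferon genes had a higher signal in the arrays labelled NME2 induced, so their differences are given as a description, and counts of them past a threshold are printed only beside the same count over the whole array.

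Interferons are secreted proteins that cells make when they sense foreign or misplaced nucleic acid. IFNB1 encodes interferon beta, a type I interferon, which binds a receptor built from IFNAR1 and IFNAR2 that nearly all nucleated cells carry. IFNL1, IFNL2 and IFNL3 encode the lambda or type III interferons, which bind a receptor of IFNLR1, found mainly on epithelial cells, and IL10RB, a chain that the receptors for interleukin 10 and interleukin 22 also use. Both receptors signal through the kinases JAK1 and TYK2 to much the same set of antiviral genes.

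The promoters of the interferon genes are shown as background, and no link between them and the changes was tested. Those of IFNL2 and IFNL3 are near-identical, while those of IFNL1 and IFNB1 differ from them. In the reference assembly, IFNL3, IFNL2 and IFNL1 lie on chromosome 19 with 0 other protein-coding genes between neighbours, and IFNB1 lies on chromosome 9. The windows, from RefSeq on GRCh38.p14, hold 300 bases around the annotated start of the gene, and 7 of the 8 genes had one; IFNAR2 is named only. The windows are chr9:21077893-21078192 on the minus strand for IFNB1, chr19:39296157-39296456 on the plus strand for IFNL1 and chr19:39268146-39268445 on the plus strand for IFNL2. For each, the 250 bases before the start are printed 5′ to 3′, with the matches to any motif searched in capitals.
IFNB1: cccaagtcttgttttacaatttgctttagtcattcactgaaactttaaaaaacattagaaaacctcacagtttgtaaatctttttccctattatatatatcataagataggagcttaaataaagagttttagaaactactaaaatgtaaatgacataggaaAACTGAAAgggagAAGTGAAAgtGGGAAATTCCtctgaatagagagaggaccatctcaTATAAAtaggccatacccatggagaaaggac
IFNL1: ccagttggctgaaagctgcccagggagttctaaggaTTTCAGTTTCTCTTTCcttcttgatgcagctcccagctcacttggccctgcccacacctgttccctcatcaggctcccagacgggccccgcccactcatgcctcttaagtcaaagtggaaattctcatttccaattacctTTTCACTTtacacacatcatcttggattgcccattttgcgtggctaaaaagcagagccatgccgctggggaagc
IFNL2: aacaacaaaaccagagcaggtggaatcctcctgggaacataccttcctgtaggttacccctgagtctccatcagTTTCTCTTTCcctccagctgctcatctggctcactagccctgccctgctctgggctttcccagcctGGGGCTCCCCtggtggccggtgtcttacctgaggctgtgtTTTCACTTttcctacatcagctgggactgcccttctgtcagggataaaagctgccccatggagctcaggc

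The motifs searched on both strands were the interferon-stimulated response element GAAANNGAAA, the core AANNGAAA bound by interferon regulatory factors (IRFs), the AP-1 motif TGANTCA, the TATA box TATAAA and the NF-kB consensus. Every GAAANNGAAA also counts as an AANNGAAA. IFNB1 held 2 matches to AANNGAAA, 1 to the NF-kB consensus and 1 TATA box, all within 89 bases before the start. IFNL1 held 3 matches to AANNGAAA, of which 2 were part of overlapping GAAANNGAAA matches from -214 to -199. IFNL2 held 2 matches to AANNGAAA, 1 of them in a GAAANNGAAA match, and 1 to the NF-kB consensus. The window of IFNL3 (chr19:39245201-39245500, minus strand, the outer of 2 in the table) differed from that of IFNL2 at 1 of 300 bases, by C31T, where the IFNL2 base stands first and positions are counted from 1 at the 5′ end. IFNL3 therefore held the same matches as IFNL2. The windows of IFNLR1, IL10RB and IFNAR1 held 0 matches to any of the 5 motifs. Of all 35116 promoter windows of this length, 22.8% held AANNGAAA, 3.57% held GAAANNGAAA, 7.71% held the AP-1 motif, 11.5% held the TATA box and 5.91% held the NF-kB consensus. A match is only a run of letters, and no binding was measured here.

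**Figure D1:**
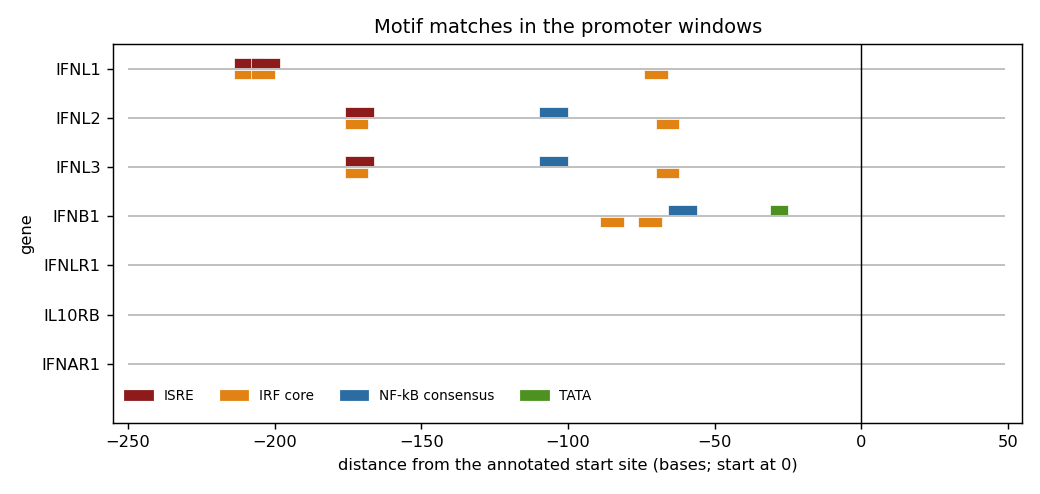
Motif matches in the 300-base promoter windows of 7 genes, by distance in bases from the annotated start site at 0; coloured boxes mark the motifs named in the key. The interferon genes IFNL1, IFNL2, IFNL3 and IFNB1 held between 2 and 3 IRF core matches each, and the receptor genes IFNLR1, IL10RB and IFNAR1 held 0.

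Transcript of all 4 interferon genes was higher in the arrays labelled NME2 induced, whereas no receptor chain changed by a comparable amount. Each of the 5 interferon probes was detected on all 6 arrays (detection p-value under 0.05), so these transcripts were already above background in cells with the control plasmid. The deposited signal is an intensity in arbitrary units, background-subtracted and equalized between arrays by the authors. Differences are given as log2 fold changes after the neqc procedure of limma, which adds an offset of 16 and so understates the change of dim probes, with the moderated standard error (SE). As the RNA is from whole cultures, more producing cells and more transcript per cell cannot be told apart.

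Between 19043 and 20726 probes were detected on an array. Over the series, 18 of 11358 genes passed limma's threshold (adjusted p under 0.05) as higher and 10 as lower. Probes at the NME2 locus differed in direction. The 3 NME2 probes had log2 fold changes of 1.04 with the groups apart, 0.26 with the groups overlapping and -0.59 with the groups apart, so that 1 probe of the targeted gene went against the label. Both probes of the NME1-NME2 readthrough were lower, at -1.99, the lowest value of all genes tested, and -1.89. The probe used for NME1 was at -0.04 and its other probes at -0.26 and 0.16, with the groups overlapping on each. Every direction here therefore rests on the group labels. Of the epithelial markers KRT8, KRT19, EPCAM and CDH1 were detected on all 6 arrays by at least 1 probe, and KRT18 on at most 1. Of 8 lung lineage markers, 5 did not meet the detection filter, among them NKX2-1 and SFTPC, which were detected on 0 arrays. Immune cells are a rich source of interferon; of 9 immune markers with probes, 3 were detected on at least 3 arrays (CD14, with a log2 fold change of 0.23, ITGAM with 0.08 and HLA-DRA with -0.10), 0 passed limma's threshold or reached an unadjusted p under 0.05, and the plasmacytoid dendritic cell marker CLEC4C and the T cell marker CD3E were detected on 0 arrays. The summed intensity of their 19 probes ran from 126 to 204 on control arrays and from 96.7 to 219 on induced arrays, and the part of such cells in the interferon values was not tested.

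IFNL1 had the largest change of the 4. Its brighter probe, ILMN_2149624, read 128, 126 and 141 on the control arrays and 322, 331 and 369 on the arrays labelled NME2 induced. The lowest induced value was thus well above the highest control value. On the log2 scale the means were 7.20 ± 0.08 and 8.48 ± 0.10 (SD, n = 3 each), a 2.41-fold higher signal (log2 fold change 1.27, SE 0.09). The second probe, ILMN_1684570, read 18.02, 25.3 and 33.6 in the control group against 71.2, 61.3 and 71.0. This dimmer probe rose by a log2 fold change of 1.03 (SE 0.14), and its control arrays spread more widely (SD 0.27) than those of the brighter probe. By the ratio of mean deposited intensities, which carries no offset, the probes were closer to each other, at 2.59 and 2.65.

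IFNB1 is the type I interferon that cells other than specialised immune cells usually make first. Its only probe, ILMN_1682245, read 189.5, 161 and 172 on the control arrays and 353, 347 and 324 on the arrays labelled NME2 induced. The groups did not overlap, and the induced arrays lay close together. The log2 means were 7.57 ± 0.11 and 8.48 ± 0.06 (SD, n = 3 each), with a log2 fold change of 0.91 (SE 0.09), or 1.88-fold.

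IFNL3 and IFNL2 are near-identical genes, and 1 probe may read transcript of both, so their values are not independent. The IFNL3 probe ILMN_1768900 read 41.1, 29.1 and 29.5 in the control group and 81.6, 71.3 and 72.7 in the induced group. Control replicate 1 was the highest control array, and all induced arrays lay above it. The log2 means were 5.61 ± 0.19 and 6.51 ± 0.09 (SD, n = 3 each), a 1.86-fold difference (log2 fold change 0.90, SE 0.11). The IFNL2 probe ILMN_1662302 read 85.8, 90.2 and 79.6 against 144, 167 and 153. It had the smallest change of the 4 genes, from 6.66 ± 0.08 to 7.41 ± 0.10 (SD, n = 3 each), or 1.69-fold (log2 fold change 0.75, SE 0.09). By the ratio of mean intensities the order of these 2 and IFNB1 was 2.26 for IFNL3, 1.96 for IFNB1 and 1.82 for IFNL2.

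**Figure D2:**
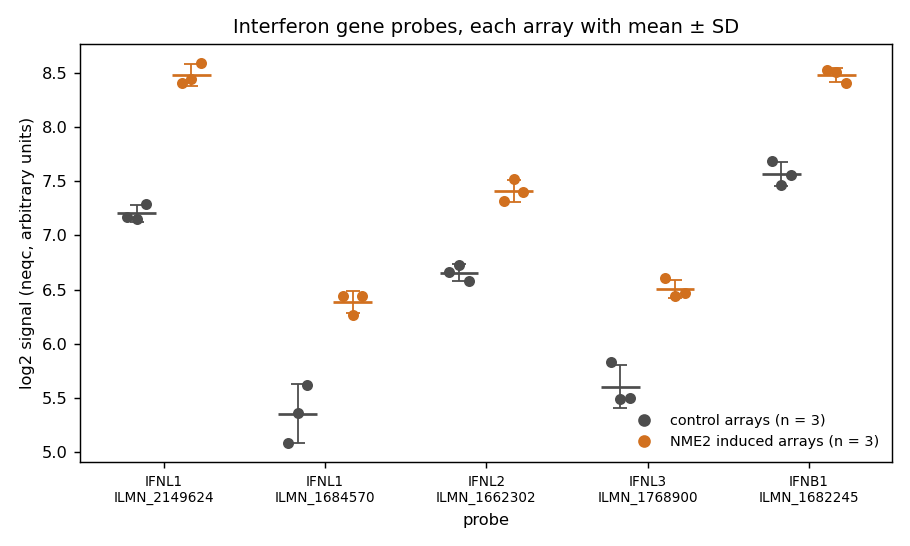
Log2 signal after neqc (arbitrary units, vertical axis) of each of the 5 interferon probes on each array; dark grey points are the 3 control arrays, orange points the 3 arrays labelled NME2 induced, and bars give the mean ± SD. The groups are apart for every probe, most widely for the brighter IFNL1 probe, where the lowest induced array lay 1.11 above the highest control array.

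Ordered by log2 fold change, IFNL1 stood first at 1.27, followed by IFNB1 at 0.91, IFNL3 at 0.90 and IFNL2 at 0.75. IFNB1 and IFNL3 lay closer to each other than the SE of either. The levels themselves were not ordered, since brightness of unlike probes cannot be compared. The median log2 fold change was 0.91 over the 4 interferon genes, 0.08 over the 4 receptor genes and 0.00 over all 11358 genes tested.

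Among the probes, 4 of the 5 for interferons and 0 of the 7 tested for receptors passed limma's threshold as higher (adjusted p under 0.05), as did 0.0928% of all 19394 detected probes; the dimmer IFNL1 probe did not. With 1 probe per gene, the 4 interferon genes and 0 receptor genes passed as higher, against 0.158% of all genes, and 0 of the 8 passed as lower, against 0.088%. Nothing is read from these counts, since the contrast chose the genes. With 1 array left out at a time, IFNL1 passed in 6 of 6 fits, IFNB1 in 2, IFNL3 in 1 and IFNL2 in 0, and between 0 and 1 of the interferon and receptor probes passed. Among all genes an unadjusted p under 0.05 by limma was reached by 7.3% as higher and 7.17% as lower, and by the methods' t-test by 13.8% in either direction, or 0.114% after adjustment. Of the 4 receptor genes, 0 reached an unadjusted p under 0.05, by limma or by the methods' t-test. The groups were apart and higher for all 5 interferon probes and for 1 of the 7 receptor probes, against 10.1% of all detected probes; over genes the share was 11.3% higher and 10.7% lower.

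Of the type III receptor, IFNLR1 gives the chain that decides which cells respond to lambda interferons. Its brighter probe, ILMN_2405324, read 49.98, 41.4 and 46.0 in the control group and 49.98, 43.1 and 63.7 in the induced group. The groups overlapped, and NME2 induced replicate 3 was the highest array. The log2 fold change was 0.14 (SE 0.12), with a 95% interval from -0.15 to 0.42. The second probe, ILMN_1680805, was near background, being detected on 2 control arrays and 3 induced arrays, and had a log2 fold change of 0.17 (SE 0.12).

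The shared chain IL10RB was the only one whose probes pointed opposite ways. The brighter probe, ILMN_2230892, read 432, 559 and 569.5 against 587, 603 and 625. Here the groups did not overlap, but by only 0.04 on the log2 scale, and control replicate 1 was far below the other control arrays. Its log2 fold change was 0.22 (SE 0.12; 95% interval from -0.05 to 0.49), and without that array 0.10. The other probe, ILMN_1767360, read 203, 141 and 156 against 143, 153 and 108, overlapping, with a log2 fold change of -0.27 (SE 0.17). On that probe control replicate 1 was the highest array. By the mean of both probes, IL10RB was at -0.03.

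For the chains of the type I receptor, the groups overlapped on each probe tested. With 3 arrays per group, a small change could be missed. The IFNAR1 probe ILMN_1752923 read 137, 131 and 132 against 116, 144 and 98.3. The control arrays were tight and the induced arrays wide, on both sides of them. The log2 fold change was -0.15 (SE 0.13), with a 95% interval from -0.45 to 0.14, and without NME2 induced replicate 3 it was -0.04. The brighter IFNAR2 probe, ILMN_1765146, read 80.6, 80.4 and 83.4 against 89.1, 79.4 and 82.2, and its log2 fold change was 0.03 (SE 0.08; 95% interval from -0.15 to 0.21). A second IFNAR2 probe, ILMN_1791057, read 17.97, 24.6 and 18.4 against 29.7, 27.7 and 21.7, with overlapping groups and a log2 fold change of 0.22 (SE 0.12). The third, ILMN_2347999, was not detected on any of the 6 arrays, where it read between -5.49 and 6.90, and was not tested. 

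**Figure D3:**
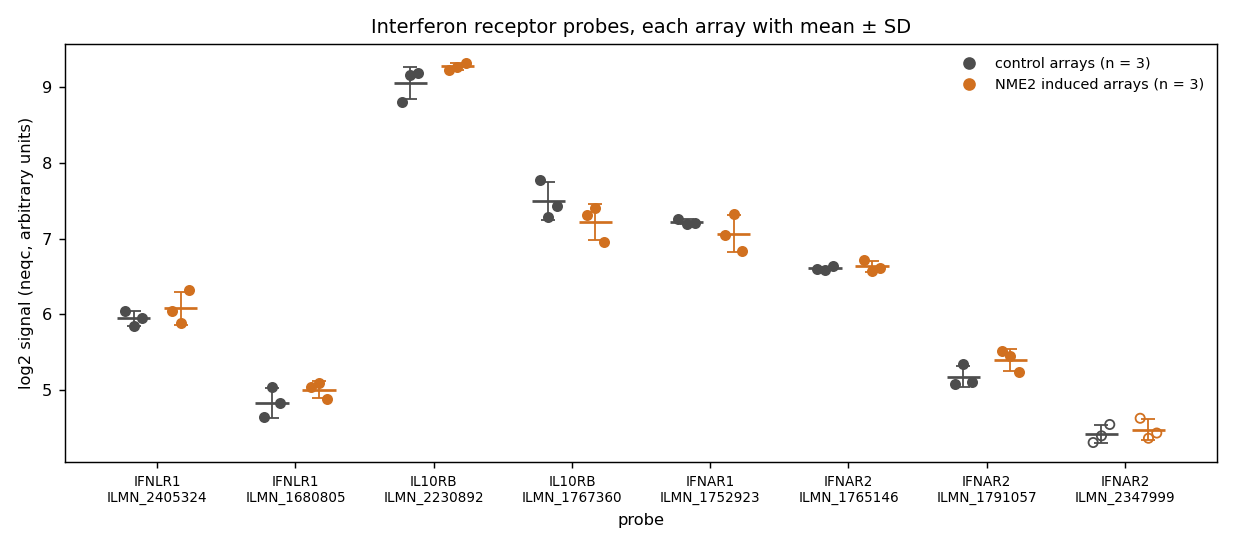
Log2 signal after neqc (arbitrary units, vertical axis) of each of the 8 receptor probes on each array; dark grey points are the 3 control arrays, orange points the 3 arrays labelled NME2 induced, open points a probe not detected on any array, and bars give the mean ± SD. Control and induced arrays overlap for all but the brighter IL10RB probe, where they are 0.04 apart.

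**Figure D4:**
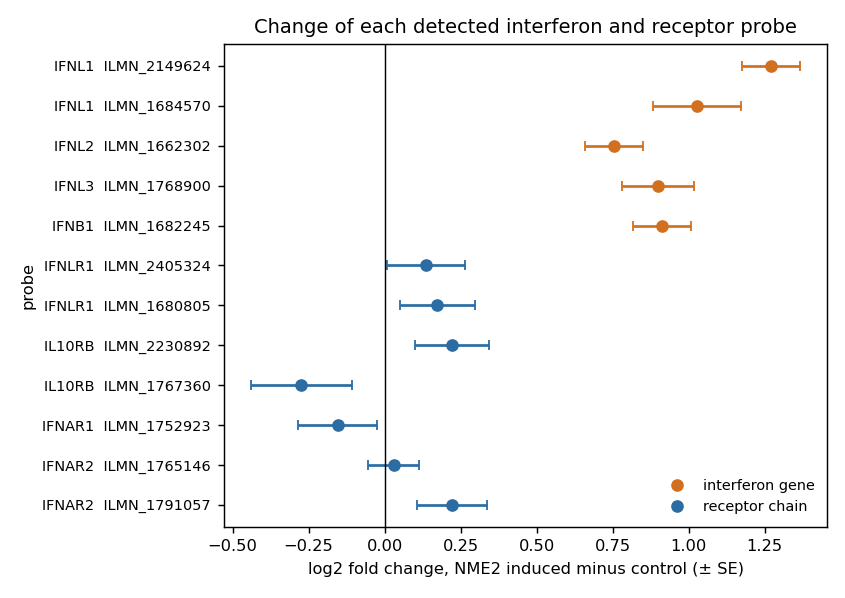
Log2 fold change (horizontal axis, NME2 induced minus control, with SE) of the 12 detected probes, orange for interferon genes and blue for receptor chains. The 5 interferon probes lie between 0.75 and 1.27, and the 7 receptor probes between -0.27 and 0.22.

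IFNAR2, IL10RB and IFNAR1 lie in this order on chromosome 21, followed by IFNGR2, a chain of the interferon gamma receptor, with 0 other protein-coding genes between neighbours. IFNGR2 had a log2 fold change of 0.07 (SE 0.10) and IFNGR1, its partner, of 0.04 (SE 0.09). Of 8 other receptor chains of this class, 5 were tested and 0 passed (limma and the methods' t-test; 0 at an unadjusted p under 0.05 by either). The 2 with the smallest p were IL22RA1, a chain of the interleukin 22 receptor, at 0.39 (SE 0.18, adjusted p = 0.385), and F3, or tissue factor, at 0.21 (SE 0.13, adjusted p = 0.490).

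Other interferon genes gave little or no signal. Of 25 probes for 17 such genes, 17 were detected on 0 arrays, 4 on 1 or 2 arrays and 4 on 3 or more. Interferon alpha genes and IFNG, the type II interferon of lymphocytes, had no probe detected on more than 2 arrays. IFNE, an interferon of epithelia, was an exception, with 3 probes detected on all arrays; their log2 fold changes were 0.18 (SE 0.13), -0.15 (SE 0.23) and -0.16 (SE 0.14), and the groups overlapped on each. IFNW1 was the other one tested, detected on 1 control array and 2 induced arrays by its better probe, with a log2 fold change of 0.10 (SE 0.14). By limma's gene test neither passed (adjusted p = 0.535 for IFNE and 0.788 for IFNW1).

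Upstream of the interferon genes, sensors of RNA or DNA and their adaptors pass the signal to kinases that activate IRF3, IRF7 and NF-kB. Of 20 such sensors and adaptors, 17 were tested and 0 passed limma's adjusted threshold, as with the methods' t-test; before adjustment 7 were higher and 1 lower by limma (p under 0.05), and 6 differed by the methods' t-test, where the shares over all genes were 7.3%, 7.17% and 13.8%. Their median log2 fold change was 0.15. No excess is read from these counts, since the list was chosen with earlier results of these data known. TRIM25, a ubiquitin ligase that activates the RNA sensor RIG-I, was at 0.38 (SE 0.08, adjusted p = 0.114), and IKBKE, a kinase of IRF3, at 0.39 (SE 0.09, adjusted p = 0.140). Of the 12 factors that bind the promoter of IFNB1 or act with those that do, 11 were tested and 0 passed, with 2 higher and 2 lower at an unadjusted p under 0.05 by limma and 3 in all by the methods' t-test, against the same shares. IRF1 was at 0.34 (SE 0.09, adjusted p = 0.177), and HMGA1, an architectural protein at this promoter, at -0.26 (SE 0.08, adjusted p = 0.230); the median was 0.05.

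Downstream of the receptors, 0 of 41 target genes passed as lower, against 0.088% of all genes, and 1 passed as higher, against 0.158%. This was OASL, an antiviral member of the oligoadenylate synthetase family, with control arrays at 10.51 ± 0.02 and induced arrays at 11.06 ± 0.04 (SD, n = 3 each), a difference of 0.56 on the log2 scale (SE 0.07; adjusted p = 0.0408 by limma over genes). The call was lost in each of the 6 fits with 1 array left out, in which 0 pathway genes passed, and over all probes the same probe had an adjusted p of 0.0570 by limma. Its second probe had a log2 fold change of 0.27 and did not pass over all probes (limma adjusted p = 0.298). ISG20, which encodes an exonuclease, differed by 0.54 (SE 0.08; by limma, adjusted p = 0.0722). Over the 41 the median was 0.13, with 35 above 0 and 6 below. Over all genes the median was 0.00, with 5712 of 11358 above 0. Their control means on the log2 scale ran from 7.66 for DTX3L to 13.75 for IFI27, with MX1 at 13.63 and ISG15 at 13.60. Whether targets already bright in the control group had less room to rise was not tested. Before adjustment 10 were higher and 3 lower by limma (p under 0.05), against 7.3% and 7.17% of all genes, so that the lower count was near the share over all genes. No excess is read from the higher count, since the list was chosen with earlier results of these data known. The lower ones were IFI6 at -0.44 (SE 0.08; by limma, adjusted p = 0.104), CMPK2 at -0.25 (SE 0.08; by limma, adjusted p = 0.229) and EIF2AK2. The largest change in the list was smaller than that of each of the 4 interferon genes. Nothing is read from this, since the contrast chose the interferon genes. The methods' t-test passed 3 after adjustment, against 0.114% of all genes. Of these IFITM1 and OASL were higher, while EIF2AK2, the RNA-activated kinase PKR, was lower, at a log2 fold change of -0.20 (SE 0.07; by limma, adjusted p = 0.294). Of 6 kinases and factors tested of 8 listed that carry the receptor signal, 0 passed; PTPN11, a phosphatase, was at -0.20 (SE 0.08, adjusted p = 0.301) and JAK1 at -0.19 (SE 0.09, adjusted p = 0.387), and limma and the methods' t-test each gave 1 at an unadjusted p under 0.05. Of 8 negative regulators 0 passed, with 2 higher and 1 lower at an unadjusted p under 0.05 by limma and 2 by the methods' t-test, against 7.3%, 7.17% and 13.8% of all genes. PIAS1, an inhibitor of STAT proteins, was at -0.29 (SE 0.10, adjusted p = 0.276) and SOCS1, an inhibitor of JAK kinases, at 0.26 (SE 0.10, adjusted p = 0.298).

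**Figure D5:**
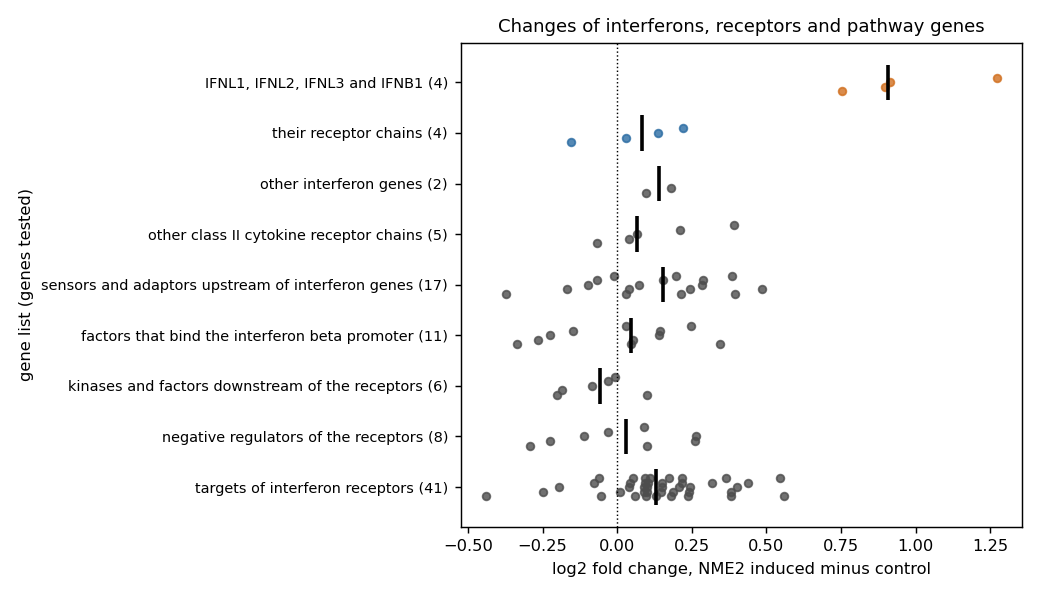
Log2 fold change (horizontal axis, NME2 induced minus control) of each tested gene, in rows by role with the number of genes; black bars mark medians. IFNL1, IFNL2, IFNL3 and IFNB1, which this contrast chose, lie at 0.75 or above, and all 90 genes of the other pathway lists lie between -0.44 and 0.56.

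The 5 genes whose log2 signal followed that of IFNL1 most closely over the 6 arrays were SPCS2, CXCL10, MCL1, IFITM1 and LTB, with Pearson correlations between 0.994 and 0.997. These 6 points fall into the 2 groups, so the correlation mostly reads the difference between them. The log2 fold changes of these genes ran from 0.13 for SPCS2, a subunit of the signal peptidase, to 1.01 for CXCL10, an interferon-linked chemokine. Among the interferon genes, IFNB1 had a correlation of 0.97 with IFNL1, IFNL2 of 0.97 and IFNL3 of 0.95; among the receptors the range was from -0.53 for IFNAR1 to 0.69 for IL10RB.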

How the data were processed

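RNA from 6 cultures of A549 cells, 3 per group, was hybridized to 1-colour Illumina Human HT-12 v4 arrays; the series description calls them biological replicates, and p-values measure the spread between them. The authors exported, with BeadStudio (version not given in the sources used here), an intensity and a detection p-value per probe. Both deposited tables held identical intensities in 6 of 6 columns, with the same minimum and maximum on every array, so the authors had subtracted background and equalized the arrays in the deposited intensities, although 1 table is described as not normalized.

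The intensities were processed with neqc of limma 3.58.1 (R 4.3.3), with detection p-values and an offset of 16. Probes with a detection p-value under 0.05 on at least 3 of 6 arrays were kept (19394 of 47231). Gene symbols came from the platform annotation (1 symbol for 30113 probes, several for 8, none for 17110). Each of 11358 genes was represented by its brightest probe. The groups were compared with lmFit and eBayes, 2-sided, with Benjamini-Hochberg adjustment over all genes, or over all detected probes, at 0.05. The methods' t-test was a 2-sided t-test with equal variances for each gene on the same log2 values. Its detection filter and adjustment were those of the limma fit. Its form, the log2 values, the filter and the adjustment were chosen here, so it need not repeat a test of the authors. The median SE was 0.11 (log2). The fit was tested on simulated data.

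The genes described and the pathway lists were chosen with earlier results of these data known. All interferon and receptor probes were named, and from each pathway list the genes past the threshold and those with the 2 smallest p. Further genes were named for the reason given beside them. The same replicate numbers in both groups were not taken as pairs, and the labels do not say whether they are. Alternatives to these steps were run. Slides are not named in the sources used here.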

Additional observations from a re-analysis of the deposited data

How the results depend on the processing

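The direction of IFNL1, IFNL2, IFNL3 and IFNB1 was kept in all 9 processing alternatives that give a fold change and in all 6 fits with 1 array left out, with log2 fold changes from 1.04 to 1.32 for IFNL1, 0.77 to 0.97 for IFNB1, 0.51 to 1.01 for IFNL3 and 0.55 to 0.80 for IFNL2. The lowest values came from normexp without detection p-values and an offset of 50. Keeping dim probes, detection on all 6 arrays, eBayes with trend and robust and the replicate block could not change these fold changes. The mean of all detected probes could change only that of IFNL1 among the interferon genes. The kept direction in those settings was therefore fixed in advance. As the groups were apart on every interferon probe, leaving out 1 array could hardly reverse a direction either. The other settings rescale intensities that were already equalized between arrays, and could hardly do so. The kept direction is therefore no support, and the ranges only describe how far the size of each change moved. IL10RB changed sign with the mean of its probes (-0.03) and IFNAR2 without NME2 induced replicate 1 (-0.01).

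Counts moved more, and the cause was not tested. Against 18 genes higher and 10 lower, 4 interferon or receptor probes and 1 pathway gene (OASL), eBayes with trend and robust gave 163, 137, 5 and 15. Normexp with offset 50 gave 83, 65, 5 and 8, and an offset of 50 alone 74, 49, 5 and 8. Detection on all 6 arrays gave 39, 30, 5 and 2. Without background correction the counts were 12, 6, 3 and 0, and with dim probes kept 12, 5, 2 and 0. The mean of all detected probes gave 15, 12 and 0 pathway genes. The methods' t-test gave 10, 3 and 3 pathway genes, and 0 of the 4 interferon genes after adjustment. The replicate block gave 4, 1, 0 and 0, with IFNL1 the only interferon gene to pass. Same-numbered arrays had correlations of deviations from -0.04 to 0.03, and not every array correlated best with its own number. These correlations cannot settle whether same-numbered arrays shared a day of culture. Leaving out 1 array at a time gave 6 to 9 genes higher and 2 to 3 lower, with 0 to 1 of these probes and 0 pathway genes. Without the second quantile step all counts were the same. The number of arrays, 3 per group, limits the precision.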
